A study of Mus musculus with 6 samples.

Results

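The 10 genes described here encode the classical major histocompatibility complex (MHC) molecules of the mouse and their closest partners, measured by RNA sequencing in ovaries of tumor-bearing and control mice. They were chosen by name: H2-K1, H2-D1 and B2m make up class I, and H2-Aa, H2-Ab1, H2-Eb1, Cd74, H2-DMa, H2-DMb1 and Ciita belong to class II. All 10 were found among the 19423 protein-coding genes of the deposited table, and all 10 passed the filter on low counts, as did 15787 genes in all. The ovaries came from balb/c-nude mice at day 80. Tumor-bearing mice (3 libraries) had received a subcutaneous injection of the line named MBA-MD-231 in the labels, and control mice (3 libraries) carry no further treatment label. The treatment labels of tumor libraries 2 and 3 give MBA-MD-232 and MBA-MD-233, while the cell line label is the same for all 3. Both groups share the nude background, in which the thymus does not form and mature T cells are scarce, while B cells, NK cells, macrophages and dendritic cells are still made. The title of the study ties breast tumors to oxidative stress and the loss of follicles, and the comparison here asks whether MHC transcripts differ in the ovary of a tumor-bearing host.

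Class I molecules sit on almost every nucleated cell: a heavy chain, such as the product of H2-K1 or H2-D1, pairs with beta-2 microglobulin, the product of B2m, and shows peptides from inside the cell to CD8+ T cells and NK receptors. Class II molecules are made mainly by macrophages, dendritic cells and B cells: an alpha and a beta chain assemble on the invariant chain Cd74, which H2-DM later helps to replace with peptides taken up from outside the cell. Transcription of class II genes depends on Ciita, a coactivator induced by interferon gamma that binds no DNA itself and docks on the RFX, NF-Y and CREB factors at the promoter. In the ovary, class II is known chiefly from macrophages and dendritic cells of the stroma and of regressing corpora lutea.

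Promoter windows of 6 members are shown first because class I and class II genes are known for the elements they share there. They come from RefSeq on build GRCm38.p6, which held an entry for 7 of the 10 members, read in the direction of the gene. Capitals mark 4 motifs searched on both strands: GATTGG (or CCAATC, the NF-Y box), TGACG (or CGTCA, the core of a CREB site), GGGATTCCC (the center of the class I enhancer A) and AANNGAAA (part of an interferon response element).

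H2-K1, chr17:34000334-34000483, minus strand: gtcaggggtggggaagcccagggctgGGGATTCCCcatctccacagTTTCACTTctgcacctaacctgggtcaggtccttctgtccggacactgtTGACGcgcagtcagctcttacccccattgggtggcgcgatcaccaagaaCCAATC
H2-D1, chr17:35262914-35263064, plus strand: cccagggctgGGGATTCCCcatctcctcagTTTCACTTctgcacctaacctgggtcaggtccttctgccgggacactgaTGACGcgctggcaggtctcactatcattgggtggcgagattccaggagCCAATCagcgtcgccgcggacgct
B2m, chr2:122147537-122147657, plus strand: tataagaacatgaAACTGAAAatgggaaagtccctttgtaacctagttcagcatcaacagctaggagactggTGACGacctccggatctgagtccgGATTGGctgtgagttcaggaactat
H2-Aa, chr17:34287853-34287933, minus strand: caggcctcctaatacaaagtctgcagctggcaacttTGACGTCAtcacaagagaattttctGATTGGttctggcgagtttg
H2-Eb1, chr17:34305757-34305846, plus strand: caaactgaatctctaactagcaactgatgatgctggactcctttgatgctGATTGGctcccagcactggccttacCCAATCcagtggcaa
H2-DMb1, chr17:34153081-34153161, plus strand: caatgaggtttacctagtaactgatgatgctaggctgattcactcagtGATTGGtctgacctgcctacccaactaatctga

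In the 250 bases before the start, H2-K1 and H2-D1 held GGGATTCCC, which was in 0.301% of the 32851 promoters searched (99 promoters). The shares of all promoters count single entries, whereas a member counts here if any of its entries holds the motif. GATTGG was found in at least 1 entry of all 7 members that have one, against 14.6% of all promoters. In H2-K1 and H2-DMa it was in entry 2 and not in entry 1, and in H2-DMa its first base lay 199 bases before the start. In H2-Aa its first base lay 49 bases before the start, in H2-Eb1 60, in H2-DMb1 62 and in B2m 54. TGACG was present in H2-K1, H2-D1, B2m and H2-Aa, against 17.8% of all promoters, and in H2-Aa it was read on both strands of the overlapping run TGACGTCA. AANNGAAA was in H2-K1, H2-D1, B2m, H2-Aa and H2-DMa, against 21.3% of all promoters. These are letter matches in the reference, which was made from C57BL/6J and therefore carries another MHC haplotype (H2-b) than balb/c mice (H2-d), and the factors themselves were not measured.

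All members but B2m, Cd74 and Ciita lie in the MHC on chromosome 17. On GRCm38.p6 the class II genes H2-DMa (chr17:34119693-34139101), H2-DMb1 (chr17:34153191-34160229), H2-Ab1 (chr17:34263227-34269418), H2-Aa (chr17:34282744-34287823) and H2-Eb1 (chr17:34305867-34316674) stand between H2-K1 (chr17:33996012-34000619) and H2-D1 (chr17:35263094-35267497). B2m is at chr2:122147687-122153082 and Cd74 at chr18:60803849-60812652, and Ciita is on chromosome 16. The deposited annotation gave the same positions for 8 of the 10. The exceptions were Ciita, whose deposited position started further upstream, and H2-K1, whose entry also takes in transcripts on an alternate scaffold.

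Reads of 50 bases cannot always be told apart between MHC genes. The coding sequences of H2-K1 and H2-D1 were 91.5% identical over aligned bases in the reference transcripts, and their longest shared run, in exon 4 of both (chr17:33997343-33997433, minus strand, and chr17:35265911-35266001, plus strand), was 91 bases. It is printed because any read inside it could come from either gene. Capitals mark the shared run, and 25 bases flank it on each side.

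H2-K1 exon 4: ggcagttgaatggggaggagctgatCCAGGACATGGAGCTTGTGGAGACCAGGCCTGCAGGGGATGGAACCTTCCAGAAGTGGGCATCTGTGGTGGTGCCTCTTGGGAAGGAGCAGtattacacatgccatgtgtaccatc
H2-D1 exon 4: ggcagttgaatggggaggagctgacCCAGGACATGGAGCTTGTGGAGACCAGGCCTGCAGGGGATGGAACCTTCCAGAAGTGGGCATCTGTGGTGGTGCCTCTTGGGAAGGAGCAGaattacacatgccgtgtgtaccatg

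Of all 50-base windows of the reference transcript, 8.79% in H2-K1, 14.3% in H2-D1 and 27.2% in H2-DMb1 occurred in another gene. For H2-DMb1 the other gene was H2-DMb2, its neighboring duplicate. For B2m, H2-Aa, H2-Ab1, H2-Eb1, Cd74 and H2-DMa the share was 0. The deposited estimates were whole numbers, within 0.005 of a read, in 6 of 6 libraries for B2m and H2-Aa, in 4 of 6 for Cd74 and in 0 of 6 for the other 7 members. These 7 include H2-Ab1, H2-Eb1 and H2-DMa, which had no shared window. H2-K1, H2-D1 and H2-DMb1 are given as uncertain for their shared windows.

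Class I genes stood above class II genes in level. Set side by side per transcript length, as TPM (a length-scaled share of the library's transcripts), the order was the same in all 6 libraries: B2m, H2-K1, H2-D1, Cd74, H2-Aa, H2-Ab1, H2-Eb1, H2-DMa, H2-DMb1 and Ciita. Over the 6 libraries B2m averaged 1449 ± 202 TPM (SD), H2-K1 802 ± 101 TPM, H2-D1 406 ± 102 TPM and Cd74 341 ± 118 TPM. H2-Aa averaged 146 ± 59.7 TPM, H2-Ab1 117 ± 32.4 TPM and H2-Eb1 51.1 ± 16.7 TPM, all chains of the surface molecule. The editing heterodimer stood lower, with H2-DMa at 13.8 ± 3.56 TPM and H2-DMb1 at 9.06 ± 3.77 TPM, and Ciita was lowest at 1.88 ± 0.701 TPM. Although each gene exceeded the next one within all 6 libraries, the ranges over libraries overlap between some neighbors in this order. These were H2-D1 with Cd74, Cd74 with H2-Aa, H2-Aa with H2-Ab1 and H2-DMa with H2-DMb1. How reads of the H2-d alleles of balb/c mice were counted on the C57BL/6J reference was not tested, a limit on the order between genes.

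No member of either class differed between tumor and control ovaries at an adjusted p of 0.05 (edgeR's quasi-likelihood test, Benjamini-Hochberg adjustment over the 15787 genes). The count was 0 of 3 for class I and 0 of 7 for class II, where 7.71% of all genes were called, a rate at which fewer than 1 of 10 genes would be called. In no member did the 3 tumor libraries lie wholly above or below the 3 control libraries, as they did for 38.1% of all genes. At an unadjusted p under 0.05 edgeR again gave 0 of 10 members, against 31.0% of all genes. DESeq2 also called 0 of 10 (19.4% of all genes), with 1 member, H2-D1, at an unadjusted p under 0.05, and the authors' deposited table gave 0 of 10 a q under 0.05 (14.7% of its genes). The median log2 fold change was 0.05 for class I and 0.20 for class II, against -0.02 over all genes tested. Leaving out 1 library moved the class I median between -0.021 and 0.23 and the class II median between -0.24 (without tumor library 1) and 0.37 (without tumor library 2), and the correction for length put the class I median at 0.30. In bulk tissue, fewer cells of a type and less RNA per cell cannot be told apart. The labels list the samples separately but do not say which animals they came from, so p-values measure the spread between these samples.

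**Figure D1:**
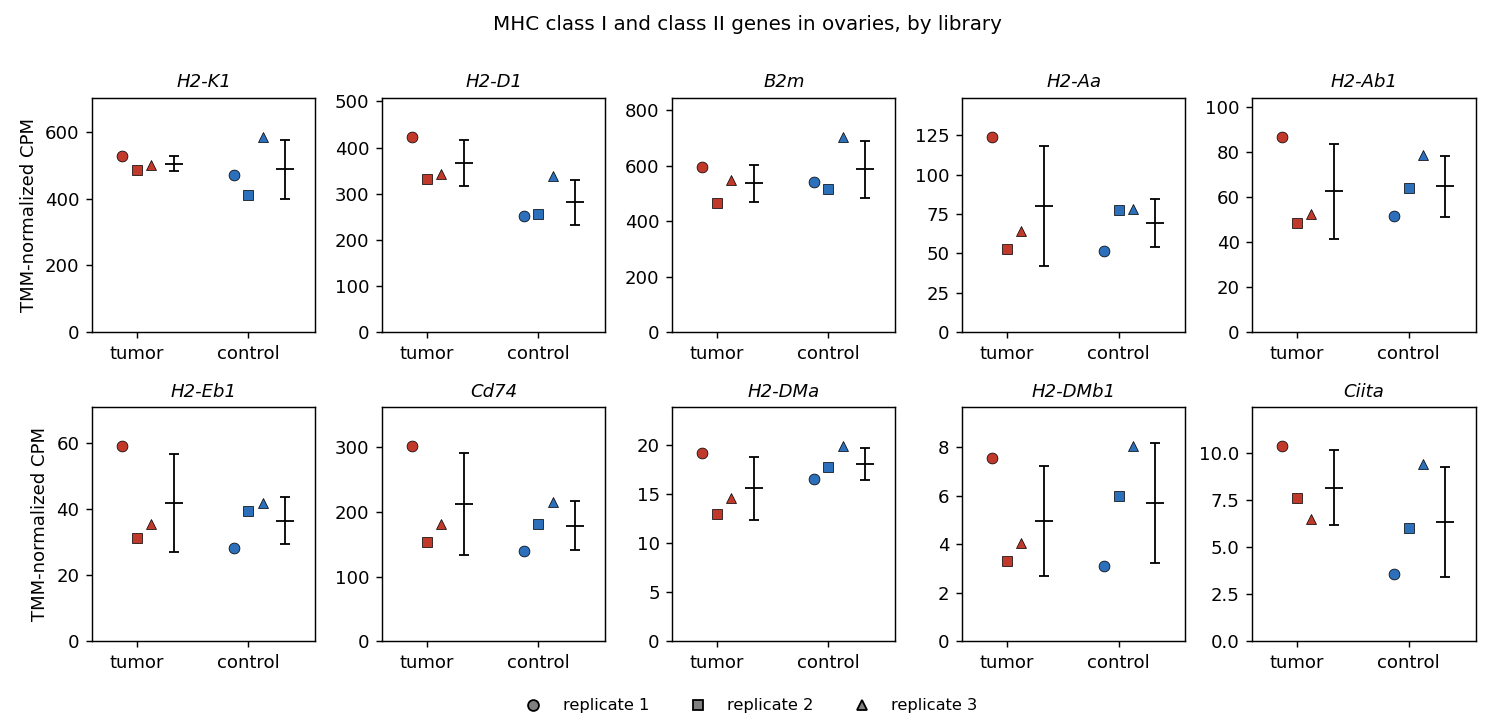
TMM-normalized CPM of each MHC member, 1 point per library (tumor red, control blue; shape gives the replicate number), with the mean and SD of 3 libraries as a bar. Tumor library 1 is the highest point for H2-D1, H2-Aa, H2-Ab1, H2-Eb1, Cd74 and Ciita, and the groups overlap in every panel.

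Among class I genes, H2-K1, a classical heavy chain, had 529.0, 485.3 and 500.5 CPM (TMM-scaled counts relative to the library's total) in tumor ovaries, against 471.7, 410.2 and 585.0 CPM in control ovaries. The tumor libraries all lay inside the control range. Its log2 fold change was 0.05 ± 0.15 (SE, 95% interval -0.30 to 0.40, edgeR adjusted p = 0.861).

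H2-D1, the other classical heavy chain of the reference, had 422.5, 332.4 and 343.6 CPM in tumor ovaries, against 251.9, 254.9 and 337.7 CPM in control ovaries. Tumor libraries 1 and 3 were above every control library, and tumor library 2 lay just under control library 3, so the groups overlapped by a single pair. The log2 fold change was 0.38 ± 0.16 (95% interval -0.0040 to 0.76, edgeR adjusted p = 0.165). The authors' deposited table gave it a log2 fold change of 0.39 with q = 0.116. Balb/c mice also carry H2-L, a close relative of H2-D1 that the C57BL/6J reference lacks, and where its reads were placed was not tested.

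B2m, the light chain shared by all class I molecules, had 595.0, 465.4 and 546.6 CPM in tumor ovaries, against 541.6, 514.3 and 702.9 CPM in control ovaries. The lowest library was tumor 2 and the highest control 3. Its log2 fold change of -0.13 ± 0.16 (95% interval -0.51 to 0.25, edgeR adjusted p = 0.627) turned to 0.20 with a correction for transcript length. Summed over H2-K1 and H2-D1, a step added after seeing the data because these genes share reads, the level was 951.5, 817.6 and 844.1 CPM in tumor ovaries, against 723.6, 665.1 and 922.7 CPM in control ovaries. That sum had a log2 fold change of 0.18 ± 0.15 (edgeR adjusted p = 0.466).

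The chains of the class II surface molecules varied more between tumor libraries than the class I genes. H2-Aa, the alpha chain of I-A, had 123.7, 52.9 and 63.9 CPM in tumor ovaries, against 51.6, 77.6 and 78.0 CPM in control ovaries. Tumor library 1 stood above all others, and tumor libraries 2 and 3 lay inside the control range. The log2 fold change was 0.22 ± 0.36 (95% interval -0.66 to 1.09, edgeR adjusted p = 0.728), and -0.24 without tumor library 1.

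H2-Ab1, the beta chain of I-A, had 86.8, 48.4 and 52.7 CPM in tumor ovaries, against 51.8, 64.0 and 79.0 CPM in control ovaries. Here tumor library 1 was highest and tumor library 2 lowest, so the tumor libraries bracketed the control ones. For H2-Ab1 the log2 fold change was -0.05 ± 0.27 (95% interval -0.70 to 0.60, edgeR adjusted p = 0.918), and 0.19 with the correction for length.

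H2-Eb1, the beta chain of I-E, had 58.9, 31.3 and 35.3 CPM in tumor ovaries, against 28.3, 39.3 and 41.8 CPM in control ovaries. Its high and low libraries were those of H2-Aa, tumor 1 and control 1. The log2 fold change was 0.20 ± 0.28 (95% interval -0.47 to 0.87, edgeR adjusted p = 0.670), and -0.13 without tumor library 1.

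H2-Ea, the alpha chain that pairs with H2-Eb1 and no member of the set, is not transcribed in C57BL/6 mice but is in balb/c mice. It was read in every library, at 85.8, 35.2 and 41.3 CPM in tumor ovaries, against 33.2, 51.9 and 47.8 CPM in control ovaries. Here the log2 fold change was 0.29 ± 0.38 (edgeR adjusted p = 0.652), and -0.21 without tumor library 1, with the same library on top as for H2-Eb1.

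Cd74, the invariant chain that holds class II dimers until peptide is loaded, was the most abundant class II gene, with 301.0, 153.1 and 180.8 CPM in tumor ovaries, against 139.7, 181.1 and 214.6 CPM in control ovaries. Tumor library 1 was again the highest and control library 1 the lowest. Its log2 fold change was 0.25 ± 0.29 (95% interval -0.46 to 0.95, edgeR adjusted p = 0.611), and -0.10 without tumor library 1. The shorter of its 2 deposited transcripts took 81.5% ± 0.39 of the gene's TPM in tumor ovaries and 81.1% ± 1.76 in control ovaries (SD, n = 3 each), a difference smaller than the spread. The longer transcript, which carries an additional exon, took 18.5% in tumor and 18.9% in control ovaries.

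H2-DM is the heterodimer that exchanges the invariant chain remnant for peptide. Its alpha chain H2-DMa had 19.1, 13.0 and 14.6 CPM in tumor ovaries, against 16.5, 17.7 and 19.8 CPM in control ovaries. Tumor libraries 2 and 3 were below every control library, and tumor library 1 was not. The log2 fold change was -0.21 ± 0.18 (95% interval -0.65 to 0.22, edgeR adjusted p = 0.465), between -0.39 without tumor library 1 and -0.10 without tumor library 2. On log2 FPKM, limma gave -0.37 with a pseudocount of 1 and -0.42 with 0.1. The share given to each H2-DMa transcript differed widely between libraries of the same group, a limit on its TPM and FPKM. The beta chain H2-DMb1 had 7.53, 3.30 and 4.03 CPM in tumor ovaries, against 3.08, 5.99 and 8.02 CPM in control ovaries, with both ends of the range in control libraries. Its log2 fold change was -0.20 ± 0.46 (95% interval -1.30 to 0.90, edgeR adjusted p = 0.806), 0.012 with the correction for length and -0.63 without tumor library 1.

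Ciita, the coactivator of all class II genes, had 10.3, 7.62 and 6.49 CPM in tumor ovaries, against 3.57, 5.99 and 9.42 CPM in control ovaries. Control library 1 was the lowest and control library 3 the second highest of the 6. The log2 fold change was 0.37 ± 0.38 (95% interval -0.56 to 1.29, edgeR adjusted p = 0.563), between 0.11 without control library 1 and 0.80 without control library 3, with 0.16 without tumor library 1. Of these counts, the share given to each deposited Ciita transcript differed widely between libraries of the same group, and no isoform is compared.

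**Figure D2:**
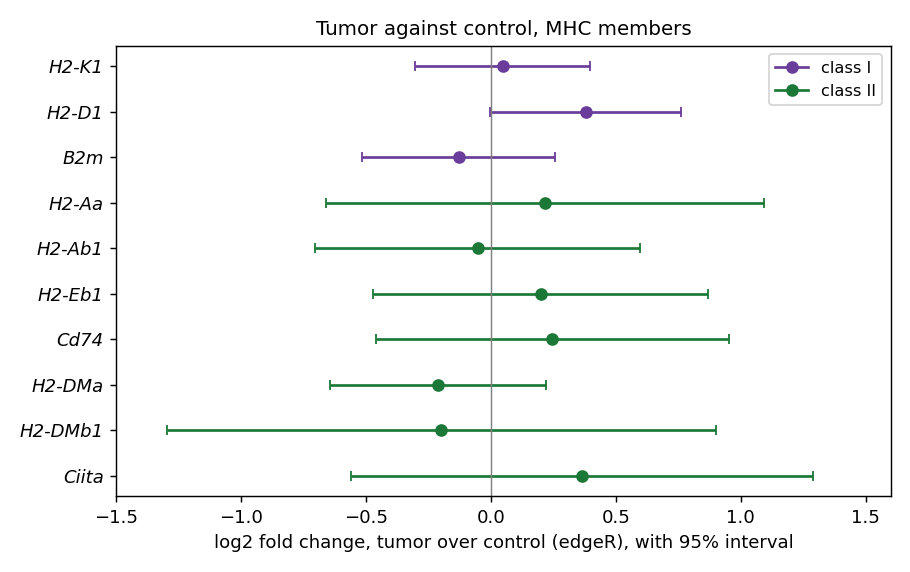
Log2 fold change of tumor over control for the 10 members (points) with the 95% interval from the edgeR fit (bars); purple marks class I and green class II. Every interval includes 0; that of H2-D1 starts at -0.0040, and that of H2-DMb1 is the widest.

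The intervals give the changes compatible with the data in the edgeR fit without the correction for length. For H2-K1 these were log2 changes between -0.30 and 0.40, whereas for H2-DMb1 the range ran between -1.30 and 0.90. With the correction for length H2-K1 stood at 0.30 ± 0.17 (SE). The spread within a group differed between genes. H2-Aa differed 2.34-fold between the highest and the lowest tumor library, and 1.51-fold between those of control. For H2-K1 the same spans were 1.09-fold in tumor and 1.43-fold in control libraries. H2-DMa, a class II gene, differed 1.48-fold between tumor libraries but 1.198-fold between control libraries, less than any class I member did there.

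Levels of the chains and of Cd74 varied together from library to library. Over the 6 libraries, Pearson's r of log2 CPM among H2-Aa, H2-Ab1, H2-Eb1, Cd74 and H2-Ea was between 0.875 and 0.994 in the 10 pairs. Among H2-K1, H2-D1 and B2m it was between 0.343 (H2-D1 with B2m) and 0.757 (H2-K1 with B2m). Ciita had r = 0.798 with Cd74 and 0.695 with H2-Aa, and H2-DMb1 had 0.954 with H2-Ab1. H2-DMa followed H2-Ab1 (0.887) more than H2-Eb1 (0.661), Cd74 (0.648) or Ciita, where r was 0.286 and below that of any class I pair. These values describe 6 points that share their library's depth and cell makeup, with tumor library 1 at one end.

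**Figure D3:**
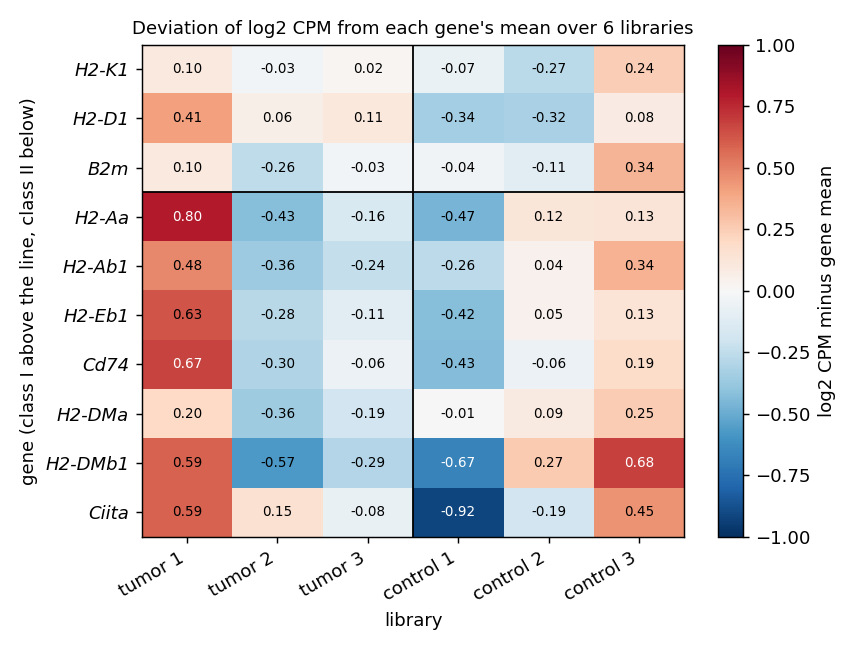
Log2 CPM of each member in each library minus the gene's mean over the 6 libraries (red above, blue below; libraries in columns, tumor at left, genes in rows with class I above the line). The class II rows are red in tumor library 1 and blue in tumor libraries 2 and 3, apart from Ciita at 0.15 in tumor library 2.

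The mean log2 CPM of H2-Aa, H2-Ab1, H2-Eb1 and Cd74 was 6.88, 5.89 and 6.09 in tumor libraries 1, 2 and 3, against 5.84, 6.27 and 6.43 in control libraries 1, 2 and 3. Tumor library 1 thus stood 2.06-fold above control library 1, the lowest. Of the 7 class II members, 5 were highest in tumor library 1 and 2 in control library 3, while 5 were lowest in control library 1 and 2 in tumor library 2. The mean over the 3 class I members was 8.996, 8.72 and 8.83 in tumor libraries, against 8.65, 8.56 and 9.02 in control libraries, with control library 3 at the top and 1.37-fold above control library 2.

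Tumor library 1 differed from tumor libraries 2 and 3 in other measures as well, although in oviduct markers it lay near control libraries 1 and 2. The summed level of 8 adipocyte markers was 7297, 698.9 and 3012 CPM in tumor libraries, against 495.4, 703.0 and 546.4 CPM in control libraries, and that of 7 oviduct markers was 1859, 157.7 and 78.0 CPM in tumor libraries, against 2205, 2079 and 488.8 CPM in control libraries. Luteal markers summed to between 2571 (tumor library 1) and 8318 CPM in tumor libraries and between 13848 and 15570.5 CPM in control libraries, with 2 of 7 lower by the test, against 3.91% of all genes. Oocyte markers summed to between 496.9 and 638.2 CPM in tumor and between 320.7 and 427.9 CPM in control libraries, with 4 of 8 higher, against 3.80% of all genes. Granulosa markers lay between 2400 and 4243 CPM in tumor and between 3114 and 4039 CPM in control libraries, and endothelial markers between 390.8 and 474.2 CPM in tumor and between 479.2 and 505.4 CPM in control libraries. The part of these tissues in the MHC levels was not tested. Total estimated counts lay between 18278614 and 18482073 in tumor libraries and between 18804610 and 19238900 in control libraries, so that depth differed little.

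Markers of macrophages and dendritic cells, leukocytes that carry class II, were present in both groups, and none was at 0 in all libraries. All 10 macrophage markers were read, led by Lyz2, C1qa and Csf1r, and summed to between 297.0 and 481.8 CPM in tumor libraries, with tumor library 1 highest, and between 343.6 and 526.0 CPM in control libraries, with control library 3 highest. The 9 dendritic cell markers were led by Zbtb46, Clec9a and Itgax. They summed to 70.9, 78.0 and 62.1 CPM in tumor libraries, against 53.9, 62.1 and 58.3 CPM in control libraries. Most of each sum came from Zbtb46, at 41.1, 49.2 and 42.8 CPM in tumor and 34.6, 39.1 and 39.2 CPM in control libraries. Xcr1, Flt3 and Ccr7 each stayed at or under 3.38 CPM, so the sum mainly follows 1 gene. Itgax had 10.7, 8.63 and 4.74 CPM in tumor and 4.70, 4.44 and 3.50 CPM in control libraries, without overlap. Its log2 fold change was 0.93 ± 0.33 (edgeR adjusted p = 0.120). Of the 9, 7 had a log2 fold change above 0 and 2 below. In neither list did a gene pass the test, against 7.71% of all genes. At an unadjusted p under 0.05 by edgeR there were 2 of 10 macrophage and 1 of 9 dendritic cell markers, against 31.0% of all genes. The groups did not overlap in 1 of 10 and 2 of 9, against 38.1% of all genes.

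The 8 T cell markers summed to between 13.2 and 14.8 CPM in tumor libraries and between 12.4 and 15.7 CPM in control libraries, most of it from Cd247, Lck and Cd4. The defining CD3 chains Cd3e, Cd3d and Cd3g each stayed at or under 0.382 CPM, close to the 0.156 to 0.164 CPM that a count of 3 represents. NK cell markers summed to between 3.82 and 6.29 CPM in tumor libraries and between 4.86 and 6.37 CPM in control libraries. The 4 markers of all leukocytes reached 119.0, 87.7 and 63.8 CPM in tumor libraries, against 77.6, 79.4 and 78.3 CPM in control libraries. Tumor library 1 was the highest for these, as it was for 5 of the 7 class II members. The part of leukocyte numbers in the class II levels was not tested.

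Ratios within a library remove what all MHC genes share there. Of 10 TPM ratios, chosen after values were seen and given as a description, 4 did not overlap between the groups, a share close to the 38.1% of single genes that did not; with 3 libraries against 3, an exact two-sided test cannot go below p = 0.10. H2-D1 stood at 0.628, 0.537 and 0.530 of H2-K1 in tumor ovaries, against 0.401, 0.472 and 0.439 in control ovaries. B2m stood at 1.13, 1.02 and 1.15 times the sum of H2-K1 and H2-D1 in tumor ovaries, against 1.28, 1.35 and 1.32 in control ovaries. Every tumor library was thus above every control library in the first ratio and below in the second, although reads shared between H2-K1 and H2-D1 enter both.

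On the class II side, Cd74 stood at 3.28, 2.99 and 3.24 times H2-Ab1 in tumor ovaries, against 2.54, 2.68 and 2.57 in control ovaries, and neither gene had windows shared with another. The groups did not overlap, and the SD within a group was 0.158 in tumor and 0.0702 in control ovaries around means of 3.17 and 2.60. The chain ratio H2-Aa to H2-Ab1 was 1.51, 1.16 and 1.29 in tumor ovaries, against 1.06, 1.28 and 1.05 in control ovaries, and H2-Ea to H2-Eb1 was 2.09, 1.61 and 1.68 in tumor ovaries, against 1.68, 1.89 and 1.64 in control ovaries. Both of these overlapped. Per unit of Ptprc, the CD45 gene of all leukocytes, H2-Ab1 was at 17.8, 17.1 and 21.7 in tumor ovaries, against 24.8, 24.4 and 36.1 in control ovaries, without overlap. The same ratio for Cd74 was 58.4, 51.1 and 70.4 in tumor ovaries, against 63.1, 65.4 and 92.8 in control ovaries, and here the groups overlapped. Ptprc itself had a log2 fold change of 0.56 ± 0.29 (edgeR adjusted p = 0.241), the largest of the 4 leukocyte markers. Laptm5 had 0.24, Coro1a 0.11 and Cd53 -0.17. Ratios to these other markers were not computed, so the ratio to Ptprc holds for that marker only.

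**Figure D4:**
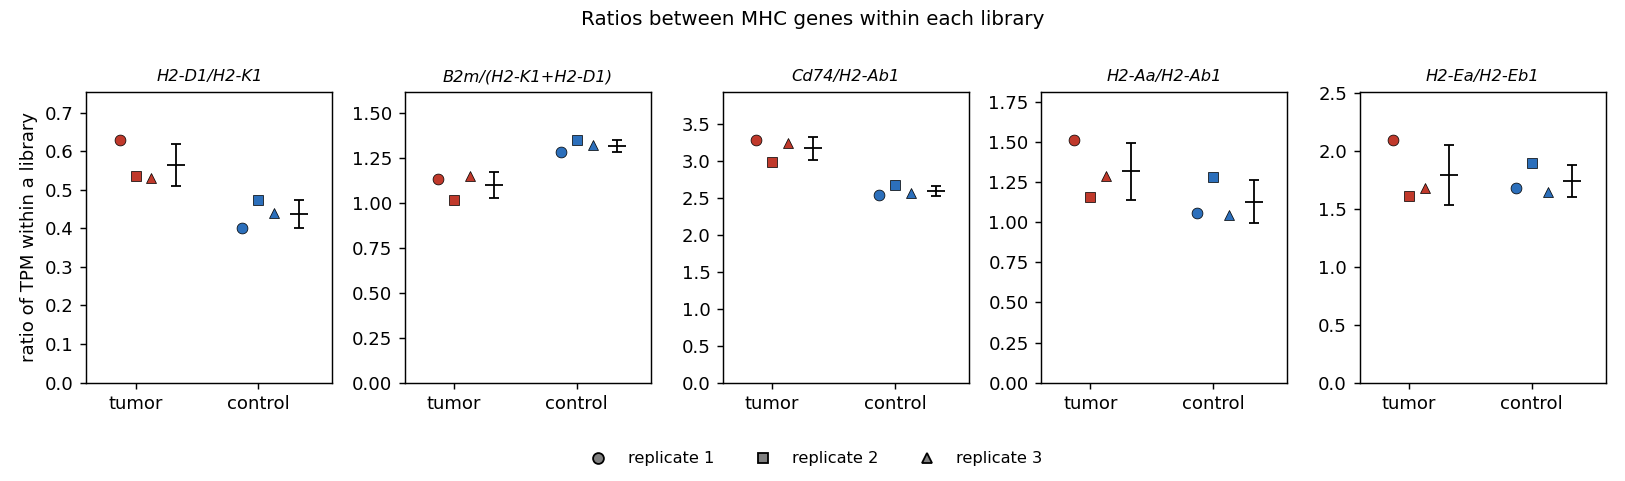
Ratio of TPM between MHC genes within each library (points; shape gives the replicate number), with mean and SD of 3 libraries per group. H2-D1/H2-K1 and Cd74/H2-Ab1 were higher, and B2m/(H2-K1+H2-D1) lower, in every tumor library than in every control library, while H2-Aa/H2-Ab1 and H2-Ea/H2-Eb1 overlap.

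The wider antigen presentation pathway was described with 6 further lists, in which 61 of 69 measured genes were tested. Of these, 1 was higher and 6 were lower in tumor ovaries by edgeR, against 3.80% of all genes higher and 3.91% lower. The other class I chains, among them the Q, T and M region genes, had 1 of 18 tested genes higher and 0 lower, with a median log2 fold change of 0.12. That gene was Hfe, a class I-like protein that acts in iron sensing and presents no peptide. Hfe had 32.6, 30.9 and 31.5 CPM in tumor ovaries, against 20.5, 20.0 and 23.1 CPM in control ovaries, with all tumor libraries above all control libraries. Its log2 fold change was 0.58 ± 0.10 (edgeR adjusted p = 0.0385).

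Others of that list did not pass, although H2-M5 did in 4 of 13 alternatives (both limma fits, without tumor library 1 and without control library 2) and Mr1 in 1 (without tumor library 1). H2-M5 had 0.831, 0.640 and 0.654 CPM in tumor ovaries, against 2.05, 1.28 and 2.37 CPM in control ovaries (log2 fold change -1.42 ± 0.34, edgeR adjusted p = 0.0539). H2-Q1 and H2-Q2, nonclassical chains of the Q region, had log2 fold changes of 0.88 and 0.60 (edgeR adjusted p = 0.114 and 0.115), and Mr1, which presents vitamin B metabolites, had -0.45 (0.134). H2-Q6 to H2-Q9 are near-identical, and the estimate moved between them from library to library. Summed, a step added after seeing the data, they had 77.2, 71.1 and 58.9 CPM in tumor ovaries, against 50.0, 51.1 and 69.5 CPM in control ovaries (log2 fold change 0.28 ± 0.17, edgeR adjusted p = 0.302).

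The genes that cut, transport and load class I peptides had 0 of 14 higher and 3 lower, and 11 of the 14 had a log2 fold change below 0, with a median of -0.35 against -0.02 over all genes. Tap2, which forms the peptide transporter with Tap1, had 51.3, 59.7 and 61.9 CPM in tumor ovaries, against 89.6, 78.8 and 96.9 CPM in control ovaries. It fell by 0.62 ± 0.12 on the log2 scale (edgeR adjusted p = 0.0386). Calr (calreticulin) and Pdia3, chaperones of the loading complex that also fold many other glycoproteins of the endoplasmic reticulum, fell by 0.71 ± 0.14 and 0.53 ± 0.11 (edgeR adjusted p = 0.0422 and 0.0451). Every tumor library was below every control library in these 3 genes and in 4 of the 14 in all, against 18.4% of all genes. Tap1, the partner of Tap2, had 35.6, 35.0 and 35.9 CPM in tumor ovaries, against 48.0, 30.7 and 78.7 CPM in control ovaries (log2 fold change -0.56 ± 0.33, edgeR adjusted p = 0.293). The proteasome activator subunits Psme1 and Psme2 had -0.39 and -0.41 (edgeR adjusted p = 0.129 for both), and the immunoproteasome subunit Psmb10 had -0.50 (0.201). With the correction for length Psme1 and Psme2 each stood at -0.06 and Psmb10 at -0.23, and Psme1 and Psmb10 passed without control library 2. Tap1 ranged between -0.79 and -0.11 when 1 library was left out, and the number of genes below 0 and the list's median hold for the fit without the correction.

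Of the other class II genes, 0 of 7 tested were higher and 1 was lower, with a median of 0.10. Lgmn, legumain, a lysosomal protease that cuts antigens and the invariant chain and is active in many cell types, had 85.2, 78.2 and 78.3 CPM in tumor ovaries, against 298.8, 325.9 and 247.1 CPM in control ovaries. Tumor libraries were far below all control libraries, and tumor library 1 did not stand apart. The log2 fold change was -1.85 ± 0.13 (edgeR adjusted p = 0.00961). Ifi30, a lysosomal thiol reductase that unfolds antigens, had 29.6, 36.2 and 38.0 CPM in tumor ovaries, against 82.2, 46.4 and 81.0 CPM in control ovaries (log2 fold change -1.01 ± 0.24, edgeR adjusted p = 0.0545). Marchf1, a ligase that removes class II from the surface, and H2-Ob, a chain of the H2-DM inhibitor H2-O, had log2 fold changes of 0.78 and 0.62 (edgeR adjusted p = 0.214 and 0.249).

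Among the RFX, NF-Y and CREB factors, 0 of 7 were higher and 1 was lower, with a median of -0.00. Rfx5, the DNA-binding subunit of the RFX complex, had 41.4, 39.0 and 38.0 CPM in tumor ovaries, against 53.8, 54.3 and 56.0 CPM in control ovaries. All tumor libraries were below all control libraries, and the log2 fold change was -0.47 ± 0.08 (edgeR adjusted p = 0.0374). Rfxank, another RFX subunit, had -0.34 and Creb1 0.54 (edgeR adjusted p = 0.101 and 0.08001), while Nfya and Nfyb, subunits of NF-Y whose box is capitalized in the promoters above, had 0.29 and 0.23 (0.234 and 0.189).

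In interferon gamma signaling, 0 of 10 tested genes were higher and 1 was lower, with a median of -0.04. Irf8, a transcription factor of the macrophage and dendritic cell lineages, had 16.1, 18.7 and 17.3 CPM in tumor ovaries, against 26.6, 27.8 and 27.1 CPM in control ovaries, without overlap. It fell by 0.64 ± 0.11 on the log2 scale (edgeR adjusted p = 0.0366). Ifng itself was at 0, 0.0533 and 0 CPM in tumor libraries, against 0.162, 0 and 0.0538 CPM in control libraries, which is at or under the level of 3 counts and shows no difference at this depth. The kinases Jak2 and Jak1 had log2 fold changes of 0.34 and 0.22, and the interferon-induced GTPases Gbp3 and Gbp2 had -0.55 and -0.45 (edgeR adjusted p = 0.269, 0.292, 0.291 and 0.334).

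Co-stimulatory genes had 0 of 5 tested called in either direction, against 7.71% of all genes, and a median of 0.44. At an unadjusted p under 0.05 by edgeR there was 1 of 5, against 31.0% of all genes. The gene nearest to the threshold was Icosl, the ligand of ICOS, with 63.0, 74.3 and 84.6 CPM in tumor ovaries, against 35.0, 56.2 and 32.2 CPM in control ovaries (log2 fold change 0.85 ± 0.24, edgeR adjusted p = 0.0747). DESeq2 called Icosl, Ifi30 and Creb1, as did edgeR without control library 2. Cd80, Cd274 and Cd86, ligands of T cell receptors of activation or restraint, had -0.75, 0.45 and 0.44 (edgeR adjusted p = 0.175, 0.360 and 0.4002).

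All 7 calls outside the 10 members (Hfe, Tap2, Calr, Pdia3, Lgmn, Rfx5 and Irf8) kept their direction in 13 of 13 alternative analyses. They lost the threshold when tumor library 2, tumor library 3 or control library 1 was left out, fits in which edgeR called 3, 0 and 0 genes of all (3961, 3761 and 3137 at an unadjusted p under 0.05), and all but Lgmn lost it without control library 3 and with the correction for length.

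**Figure D5:**
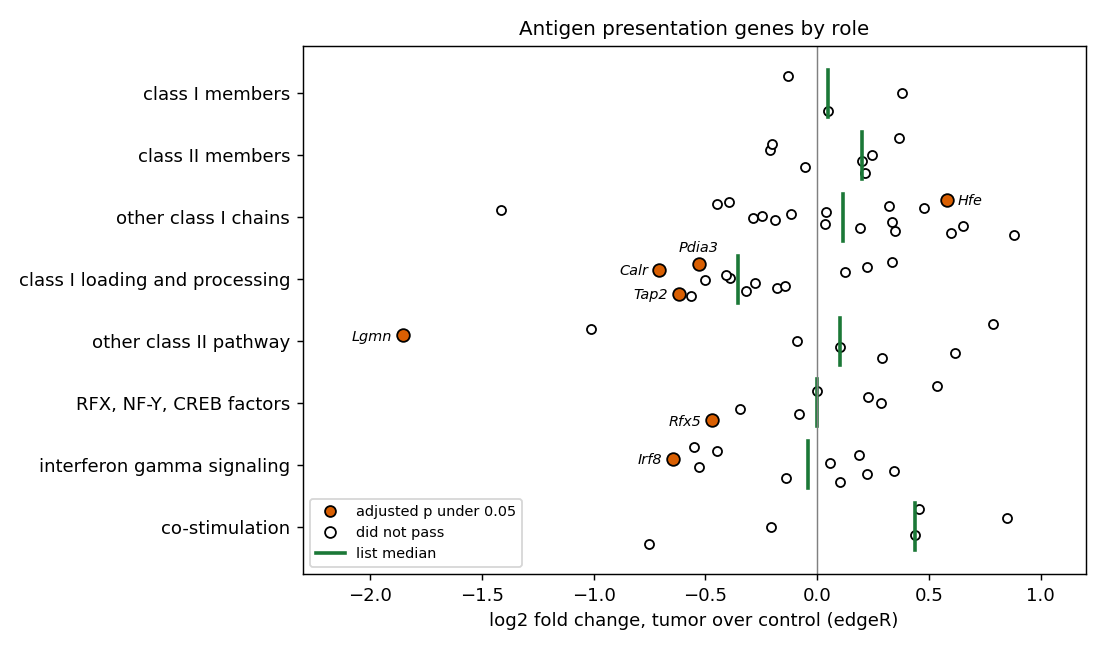
Log2 fold change of tumor over control (edgeR) for each tested gene of the MHC members and of 6 pathway lists; filled points passed an adjusted p of 0.05, and the green line is the list median. The class I and class II members lie between -0.21 and 0.38 with no filled point, and the 3 filled points of the loading list are left of 0.

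Of 13797 genes ranked by likeness over the 6 libraries, members left out, the mean of H2-Aa, H2-Ab1, H2-Eb1 and Cd74 was followed most closely by Mtm1 (Pearson's r = 0.983), Riok3 (0.983), H2-Ea (0.974), H2-DMb2 (0.974) and Tnfrsf11a (0.970). Thus 2 of the 5 closest genes were class II genes of the same region, a chain of I-E and a copy of the H2-DM beta chain. The mean of H2-K1, H2-D1 and B2m was followed by Vps26a (0.982), LOC115485726 (0.973), Trim71 (0.955), Dok6 (0.945) and Nlrc5 (0.943). Nlrc5 is the coactivator of class I genes, as Ciita is for class II. These r values describe 6 libraries and were the highest of a search over all genes ranked.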

How the data were processed

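Ovaries of tumor-bearing and control mice gave 6 single-end libraries of 50-base reads (MGIseq500, per the labels' protocols). The submitters' processing notes list RSEM 1.2.12, HISAT2 2.0.4 and Bowtie2 2.2.5 and the build GRCm38.p6, and give no role or order. The authors deposited estimated counts per gene and per transcript, with FPKM and TPM values beside them, per the file headers. The authors' deposited comparison table holds q-values and p-values beside log2 fold changes. A further 24 per-sample columns were not used. For strandedness and RNA selection, the method is not given in the sources used here.

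Estimated counts were rounded to whole numbers, filtered with filterByExpr and scaled by TMM (factors 0.962 to 1.054) in edgeR 4.0.16 (R 4.3.3). The quasi-likelihood F test with robust dispersion compared tumor with control, with Benjamini-Hochberg adjustment over 15787 genes at a threshold of 0.05. A standard error is the absolute log2 fold change over the square root of F, and intervals are 95% from the t distribution. Alternatives were DESeq2 1.42.0, its size factors, no filter, limma 3.58.1 on log2 FPKM with pseudocounts of 1 and 0.1, a replicate block, a loess correction for transcript length, and leaving out each library. No libraries agreed within sampling noise (chi-square per degree of freedom at least 12.6). The steps were tested on simulated data. A count of 3 is taken as the limit that a count of 0 allows, for counting error only, because the reads carry no molecular identifiers.

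Members and lists were chosen with earlier results of these data known. Named were all 10 members, every called gene of the 6 other pathway lists with up to 4 more of smallest p, up to 3 leading markers of the lists for macrophages, dendritic cells and T cells among 12 marker lists (the B cell list is not reported here), and the 5 genes most like each class among those with an average log2 CPM of at least 1, leaving out symbols that are Gm with a number or end in Rik. Transcript windows and coding identity used GENCODE M21, and promoters used RefSeq on GRCm38.p6, searched with Python 3.11.15.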

Additional observations from a re-analysis of the deposited data

How the results depend on the processing

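Of 130 values of the 10 members under 13 alternatives, 117 kept their direction and none passed the threshold, so the counts of 0 of 3 class I and 0 of 7 class II members held in each. The other 13 values, in 7 members, changed sign. With the correction for transcript length B2m was at 0.20, H2-Ab1 at 0.19 and H2-DMb1 at 0.012. Leaving out 1 library gave H2-K1 -0.021 to 0.23, B2m -0.21 to 0.053, H2-Aa -0.24 to 0.44, H2-Ab1 -0.36 to 0.15, H2-Eb1 -0.13 to 0.37, Cd74 -0.10 to 0.43, H2-DMb1 -0.63 to 0.16, H2-D1 0.26 to 0.56, H2-DMa -0.39 to -0.10, Ciita 0.11 to 0.80 and H2-Ea -0.21 to 0.52. Over all genes, the count of calls was 1217; DESeq2 gave 3057, the correction for length 132, and leaving out 1 library between 0 and 2605. The highest counts came without tumor library 1 (2605) or control library 2 (2274), and the counts of 0 came without tumor library 3 (3761 genes at an unadjusted p under 0.05 by edgeR, DESeq2 not run there) or control library 1 (3137). The labels do not say whether the numbers shared by tumor and control samples pair them. The correlation of deviations was 0.24, -0.21 and 0.53 for numbers 1, 2 and 3, which cannot settle this with 3 libraries a group. A replicate block gave 0 calls by edgeR (4233 genes at an unadjusted p under 0.05). Pdia3 also lost its call without the filter on low counts, and Rfx5 in both limma fits. The causes were not tested. With 3 libraries a group, the class II intervals allow changes of either sign. The Ciita and H2-DMb1 levels are low, and H2-K1, H2-D1, H2-DMb1 and the H2-Q genes share reads with relatives.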
